A study of Drosophila melanogaster with 12 samples.

Results

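The 1631 genes described here are those for which the effect of SOD2i on the transcript level differed between a Drp1SG background and a Control background in Drosophila melanogaster embryos. They were found with an interaction contrast on read counts, the log2 change of the double genotype Drp1SG;SOD2i over Drp1SG minus the log2 change of SOD2i over Control. The contrast was fitted to all 12 libraries, and a gene was called at an adjusted p under 0.05. Of 17868 genes with counts, 9863 had enough reads to be tested, so 16.5% of the tested genes were called. A value of 0 means that the change in the double genotype equalled the sum of the changes in the single genotypes. A value above 0 means that the double genotype lay above that sum, which held for 907 genes (9.2% of those tested), and a value below 0 was found for 724 genes (7.34%). With upper-quartile scaling the calls were 1013 above 0 and 465 below 0. The genes were then sorted by pattern, above all into those changed in both single genotypes with the double genotype near Control and those changed in the double genotype alone.

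Drp1 encodes the dynamin-related GTPase that constricts and divides mitochondria. Sod2 is the superoxide dismutase that works inside mitochondria with manganese and turns superoxide into hydrogen peroxide. The early fly embryo starts with RNA and mitochondria laid down by the mother. Maternal RNAs are degraded and zygotic genes are switched on as the nuclei are enclosed by membranes and gastrulation begins.

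The genotypes, each with 3 biological replicates, were the double genotype carrying both Drp1SG and SOD2i, Drp1SG, SOD2i and Control, and the tissue of each was embryos. The labels do not expand these names, name no driver, promoter or line background, and give no allele that all groups share. Per the labels, each replicate pooled embryos from several collections at 28 C, sorted by hand to an equal mix of cellularizing and gastrulating stages. Genotypes that laid few eggs were collected over a longer window without ageing, and the labels do not say which those were, so the collection window and the genotype cannot be told apart. RNA was captured by poly(T) beads, so the values are levels of polyadenylated RNA. They are levels in whole embryos, in which fewer cells of a type and less RNA per cell cannot be told apart.

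The libraries held 61757756 to 91949037 reads in genes, and the common biological coefficient of variation was 0.1755. A maternal index, the mean log2 CPM (read counts scaled to library size) of 34 unstable maternal transcripts, was 6.00 ± 0.18 in the double genotype, 6.49 ± 0.20 in Drp1SG, 5.78 ± 0.60 in SOD2i and 5.64 ± 0.44 in Control (SD, n = 3 each). Its own interaction was -0.64, and its lowest libraries were Control replicate 3 and SOD2i replicate 2. An index of embryo stage, averaged likewise over 30 genes, was -1.37 ± 0.20 in the double genotype and -0.77 ± 0.19 in Drp1SG. In SOD2i it was -1.48 ± 0.23 and in Control -1.15 ± 0.41, with an interaction of -0.26. All Drp1SG libraries lay above all double genotype and SOD2i libraries here, and Control replicate 3 lay among the Drp1SG values. The part of stage in the interaction calls was not tested. Summed over 5 muscle markers, levels were 7.34 to 60.4 CPM in the double genotype, 6.13 to 13.6 CPM in Drp1SG, 3.03 to 4.09 CPM in SOD2i and 4.11 to 5.81 CPM in Control. Blood cell markers summed to 211 to 225 CPM in the double genotype, 210 to 233 CPM in Drp1SG, 238 to 290 CPM in SOD2i and 223 to 230 CPM in Control. For amnioserosa markers the ranges were 271 to 281, 221 to 250, 319 to 347 and 266 to 290 CPM in the same order. For tracheal markers they were 39.7 to 50.1, 29.1 to 41.4, 35.6 to 42.6 and 17.2 to 25.4 CPM. For pole cell markers they were 102 to 142, 122 to 173, 57.2 to 141 and 46.9 to 108 CPM. The part of cell types in the interaction was not tested. The eggshell genes Cp36 and Cp38 of follicle cells and Mst84Da of testis had no read in any library.

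Sod2 and Drp1 share their names with the genotypes, and the labels do not say which way the RNA of either should move. Sod2 had 2.51, 3.54 and 3.08 CPM in the double genotype, 53.5, 46.7 and 48.3 CPM in Drp1SG, 1.76, 2.34 and 1.38 CPM in SOD2i, and 50.6, 50.3 and 51.6 CPM in Control. The 6 libraries that carry SOD2i were thus far below the 6 that do not, and all double genotype libraries lay above all SOD2i libraries. The Sod2 interaction was 0.78 ± 0.23 (log2, SE, adjusted p = 0.0414), a call that was lost in 11 of 21 alternative fits, with an adjusted p of up to 0.0927. Drp1 had 43.8, 42.9 and 44.2 CPM in the double genotype, 71.0, 104 and 77.1 CPM in Drp1SG, 24.1, 23.5 and 18.6 CPM in SOD2i, and 35.1, 34.2 and 38.8 CPM in Control. No library of one genotype reached the range of another. For Drp1 the double genotype was called lower than Drp1SG (-0.94 ± 0.14, adjusted p = 0.00126) and higher than SOD2i (0.98 ± 0.14, adjusted p = 8.18e-04). Drp1 rose in Drp1SG (log2 fold change 1.22 ± 0.14, adjusted p = 1.44e-04) and fell in SOD2i (-0.71 ± 0.14, adjusted p = 0.00335), and the double genotype was not called against Control (0.28 ± 0.14, adjusted p = 0.248). The Drp1 interaction of -0.24 ± 0.19 was not called (adjusted p = 0.467).

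**Figure D1:**
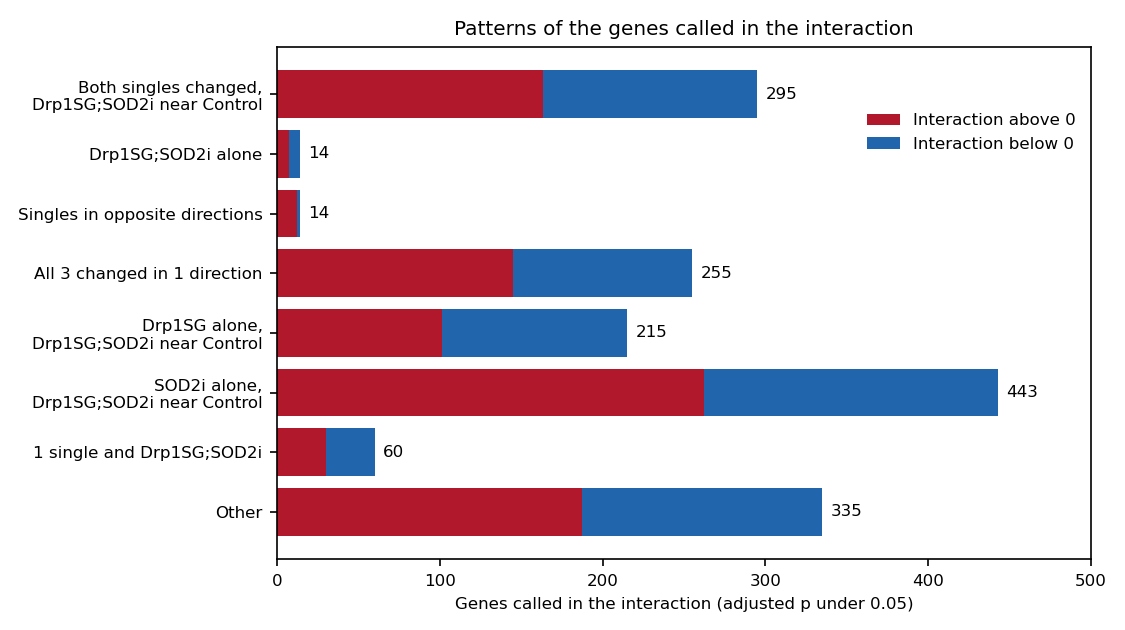
Number of genes called in the interaction by pattern, in red with an interaction above 0 and in blue with one below 0. The 295 genes changed in both single genotypes outnumber the 14 changed in the double genotype alone. Whatever the interaction, the same rules took in 305 and 118 genes. The contrast takes in both single changes in the first pattern and only that of the double genotype in the second. The interaction call therefore favours the first pattern by construction.

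In the same fit 879 genes (8.91%) were called in the double genotype against Control, 1830 (18.6%) in Drp1SG and 2286 (23.2%) in SOD2i. Of all tested genes 4.62% were higher and 4.29% lower in the double genotype, 9.72% were higher and 8.83% lower in Drp1SG, and 10.3% were higher and 12.8% lower in SOD2i. These comparisons share the Control libraries, so their calls are not independent of each other. Among the 1631 interaction genes, 1485 had changes of the same sign in both single genotypes, and 637 were called in both in that direction. Over all tested genes 61.5% had changes of the same sign, and 7.28% were called in both in the same direction. For 1351 genes the SOD2i effect in the Drp1SG background had the opposite sign to the SOD2i effect over Control, which was so for 47.0% of all tested genes. Selection on the contrast and the shared Control libraries both bear on these counts, so they describe the called genes and test nothing. As the plot of pattern counts shows, 295 genes (18.1% of the called genes) were called in both single genotypes in the same direction with the double genotype near Control. Near Control means not called and within 1.5-fold of it. For 14 genes (0.858%) the double genotype was called against Control while neither single genotype was called and both lay within 1.5-fold of Control. A further 6 genes with a call in the double genotype alone had a single genotype outside that margin and are counted with the remaining genes. The single genotypes moved in opposite directions for 14, and all 3 genotypes were called in the same direction for 255. Drp1SG alone was called with the double genotype near Control for 215 genes, SOD2i alone for 443, and 1 single genotype together with the double for 60. The remaining 335 genes met none of these rules, among them 84 called in both single genotypes where the double genotype was not called but lay outside the margin, and 173 called in no genotype against Control.

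Of the 295 genes called in both single genotypes with the double genotype near Control, 132 were higher and 163 lower in the single genotypes. Over all tested genes the same pattern, whatever the interaction, took in 305 genes (3.09%), of which 10 were not called in the interaction. Median log2 changes of the 132 higher genes were 0.12 in the double genotype, 0.58 in Drp1SG and 0.62 in SOD2i, each against Control. For the 163 lower genes the medians were -0.27 in the double genotype, -0.76 in Drp1SG and -0.92 in SOD2i. The double genotype therefore tended to stay on the side of the single genotypes, which was so for 96 of the 132 and 134 of the 163. Since the pattern was defined by these contrasts, the medians describe it and test nothing.

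**Figure D2:**
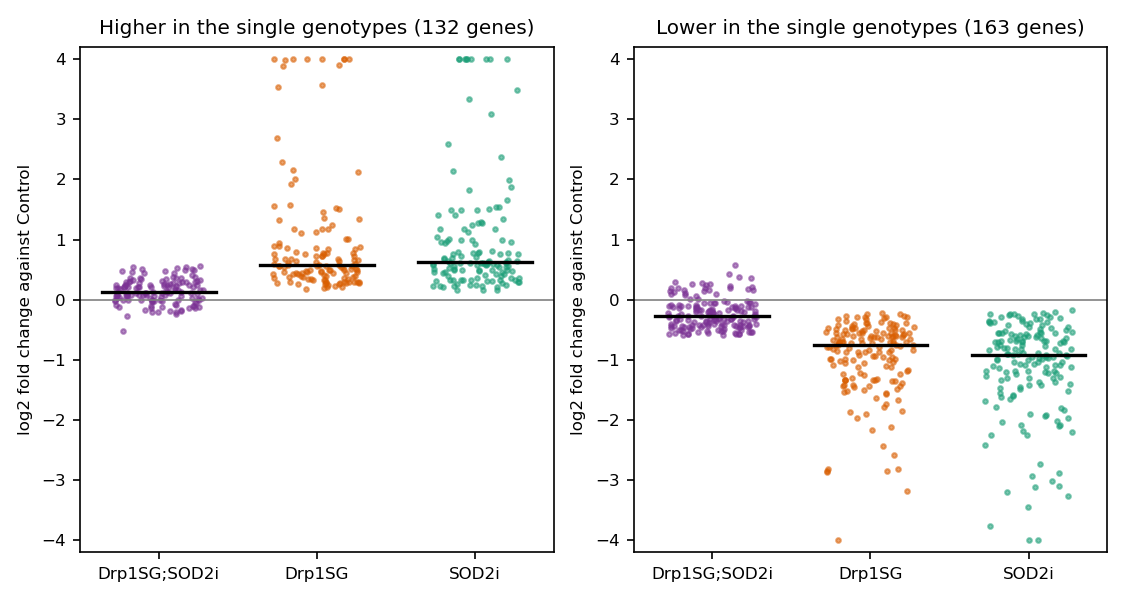
Log2 fold change against Control in the double genotype, Drp1SG and SOD2i for the genes called in both single genotypes with the double genotype near Control. Points are genes, black lines are medians, values beyond 4 are drawn at 4, and the double genotype lies within the margin of 0.58 around 0 by the rule.

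At the edge of that margin, CG14219 was inside with a change of -0.58 in the double genotype (-0.584 before rounding) and CG8401 outside with -0.586. At the edge of the interaction call, CG15099 had an adjusted p of 0.0499 and the non-coding lncRNA:CR44854, just outside, one that rounds to 0.05. In 206 of the 295 genes all 6 single-genotype libraries lay on one side of all 6 double genotype and Control libraries, a separation found for 4.78% of tested genes. They lay above in 97 of the 132 higher genes, against 2.24% of tested genes, and below in 109 of the 163 lower genes, against 2.53%. Over all tested genes the double genotype was called lower than Drp1SG for 5.82% and lower than SOD2i for 8.79%, and higher than Drp1SG for 5.05% and higher than SOD2i for 10.5%. Among the 132 higher genes it was called lower than Drp1SG for 81, than SOD2i for 92 and than both for 69. Among the 163 lower genes it was called higher than Drp1SG for 76, than SOD2i for 104 and than both for 59. The pattern was defined by calls on these same libraries. The separations and calls thus follow in large part from the rule, and they describe the pattern and test nothing. The change was at least 2-fold in both single genotypes for 29 of the higher and 41 of the lower genes.

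The 2 directions differed in expression level. Taking each gene in the genotype where it was highest, the median was 54.3 CPM over the 132 higher genes, 6.71 CPM over the 163 lower genes and 19.7 CPM over all tested genes. Of the higher genes 11 (8.33%) were not protein coding, of the lower genes 3 (1.84%) and of all tested genes 567 (5.75%).

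Among the genes higher in both single genotypes, those named here have the largest interactions among genes with a name, libraries that do not overlap and a mean of at least 5 CPM in the highest genotype. Numbered genes left out by that rule include CG15270 (-11.85) and CG32581 (-7.46), both with larger interactions. Fas3, a homophilic cell adhesion molecule, had 4.91, 3.91 and 4.22 CPM in the double genotype, 18.9, 11.8 and 14.3 CPM in Drp1SG, 11.2, 12.4 and 9.05 CPM in SOD2i, and 2.82, 3.00 and 3.38 CPM in Control. Its single-genotype libraries did not overlap the others, and the double genotype lay slightly above Control. The Fas3 interaction was -3.61 ± 0.26 (log2, adjusted p = 3.62e-06). Sod3, which encodes the extracellular superoxide dismutase, had 58.2, 53.0 and 46.6 CPM in the double genotype, 122, 134 and 134 CPM in Drp1SG, 163, 159 and 165 CPM in SOD2i, and 45.3, 48.1 and 38.7 CPM in Control. The single genotypes were apart from each other as well as from the other 2 groups, which overlapped. Its interaction was -3.19 ± 0.14 (adjusted p = 8.47e-08). The log2 fold change of the double genotype was -1.31 over Drp1SG and -1.62 over SOD2i for Sod3, both called (adjusted p = 1.24e-05 and 2.08e-06).

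Mis12, a kinetochore protein, averaged 3.78 CPM in the double genotype, 12.7 CPM in Drp1SG, 8.84 CPM in SOD2i and 4.47 CPM in Control (interaction -2.73 ± 0.25, adjusted p = 2.45e-05). vari, a scaffold protein of septate junctions, averaged 29.2 CPM in the double genotype, 53.6 CPM in Drp1SG, 60.6 CPM in SOD2i and 20.8 CPM in Control (interaction -2.42 ± 0.22, adjusted p = 1.73e-05). Neither gene had a single-genotype library within the range of the other groups. The next by size were CARPA (-2.35 ± 0.36), Uhg5, a host gene of small nucleolar RNAs (-2.08 ± 0.27), and the glutathione transferase gene GstT4 (-1.76 ± 0.19). For fs(1)K10, a maternal gene that acts in dorsoventral patterning of the egg, the levels were 88.5 to 95 CPM in the double genotype, 116 to 123 CPM in Drp1SG, 198 to 220 CPM in SOD2i, and 69.9 to 94.6 CPM in Control. SOD2i stood far above Drp1SG here, and the interaction was -1.71 ± 0.14 (adjusted p = 7.88e-06).

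The genes lower in both single genotypes were named by the same rule. None of 5 neuron markers had this pattern, which in either direction and whatever the interaction took in 3.09% of tested genes. Of the 5, 3 were called in the interaction, 1 above 0 and 2 below, against 16.5% of tested genes. Their summed level was 8.67 to 10.8 CPM in the double genotype, 6.76 to 9.27 CPM in Drp1SG, 10.6 to 13.2 CPM in SOD2i and 7.01 to 8.18 CPM in Control. The part of neurons in the genes named here was not tested. SP2353 had 10.6, 9.06 and 8.33 CPM in the double genotype, 0.800, 0.941 and 0.922 CPM in Drp1SG, 0.682, 1.20 and 0.449 CPM in SOD2i, and 6.45, 5.07 and 7.21 CPM in Control. Every double genotype library was above every Control library, and the difference of 0.58 ± 0.25 on the log2 scale did not pass the test (adjusted p = 0.191). The SP2353 interaction was 6.40 ± 0.41 (adjusted p = 9.71e-07). para, the voltage-gated sodium channel, had 12.9, 14.1 and 12.0 CPM in the double genotype, 1.95, 3.46 and 3.44 CPM in Drp1SG, 1.79, 3.68 and 2.96 CPM in SOD2i, and 11.7, 11.1 and 8.92 CPM in Control. The single genotypes shared a range far below the others, and the double genotype lay just above Control. The para interaction was 4.05 ± 0.38 (adjusted p = 2.45e-05).

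tau, a microtubule-binding protein of axons, had 5.47, 5.93 and 5.74 CPM in the double genotype, 2.76, 2.12 and 3.19 CPM in Drp1SG, 1.05, 1.06 and 0.758 CPM in SOD2i, and 7.05, 6.75 and 7.99 CPM in Control. Its 4 genotypes did not overlap, with SOD2i the lowest, and its interaction was 4.01 ± 0.25 (adjusted p = 8.82e-07). cib, an actin-binding protein with thymosin repeats, averaged 74.0 CPM in the double genotype, 52.0 CPM in Drp1SG, 28.3 CPM in SOD2i and 108 CPM in Control (interaction 2.44 ± 0.33, adjusted p = 3.80e-04). The double genotype of cib was called against SOD2i (1.39, adjusted p = 0.0022) and not against Drp1SG (0.51, adjusted p = 0.19). nAChRalpha5, a nicotinic receptor subunit (interaction 2.33 ± 0.30), the secreted growth factor gene miple1 (2.09 ± 0.23), the lysosomal thiol reductase gene GILT3 (1.88 ± 0.32) and chp, a photoreceptor adhesion protein (1.71 ± 0.22), followed. All 8 of these lower genes and all 8 of the higher ones named above kept their sign and their call in each of the 21 alternative fits.

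**Figure D3:**
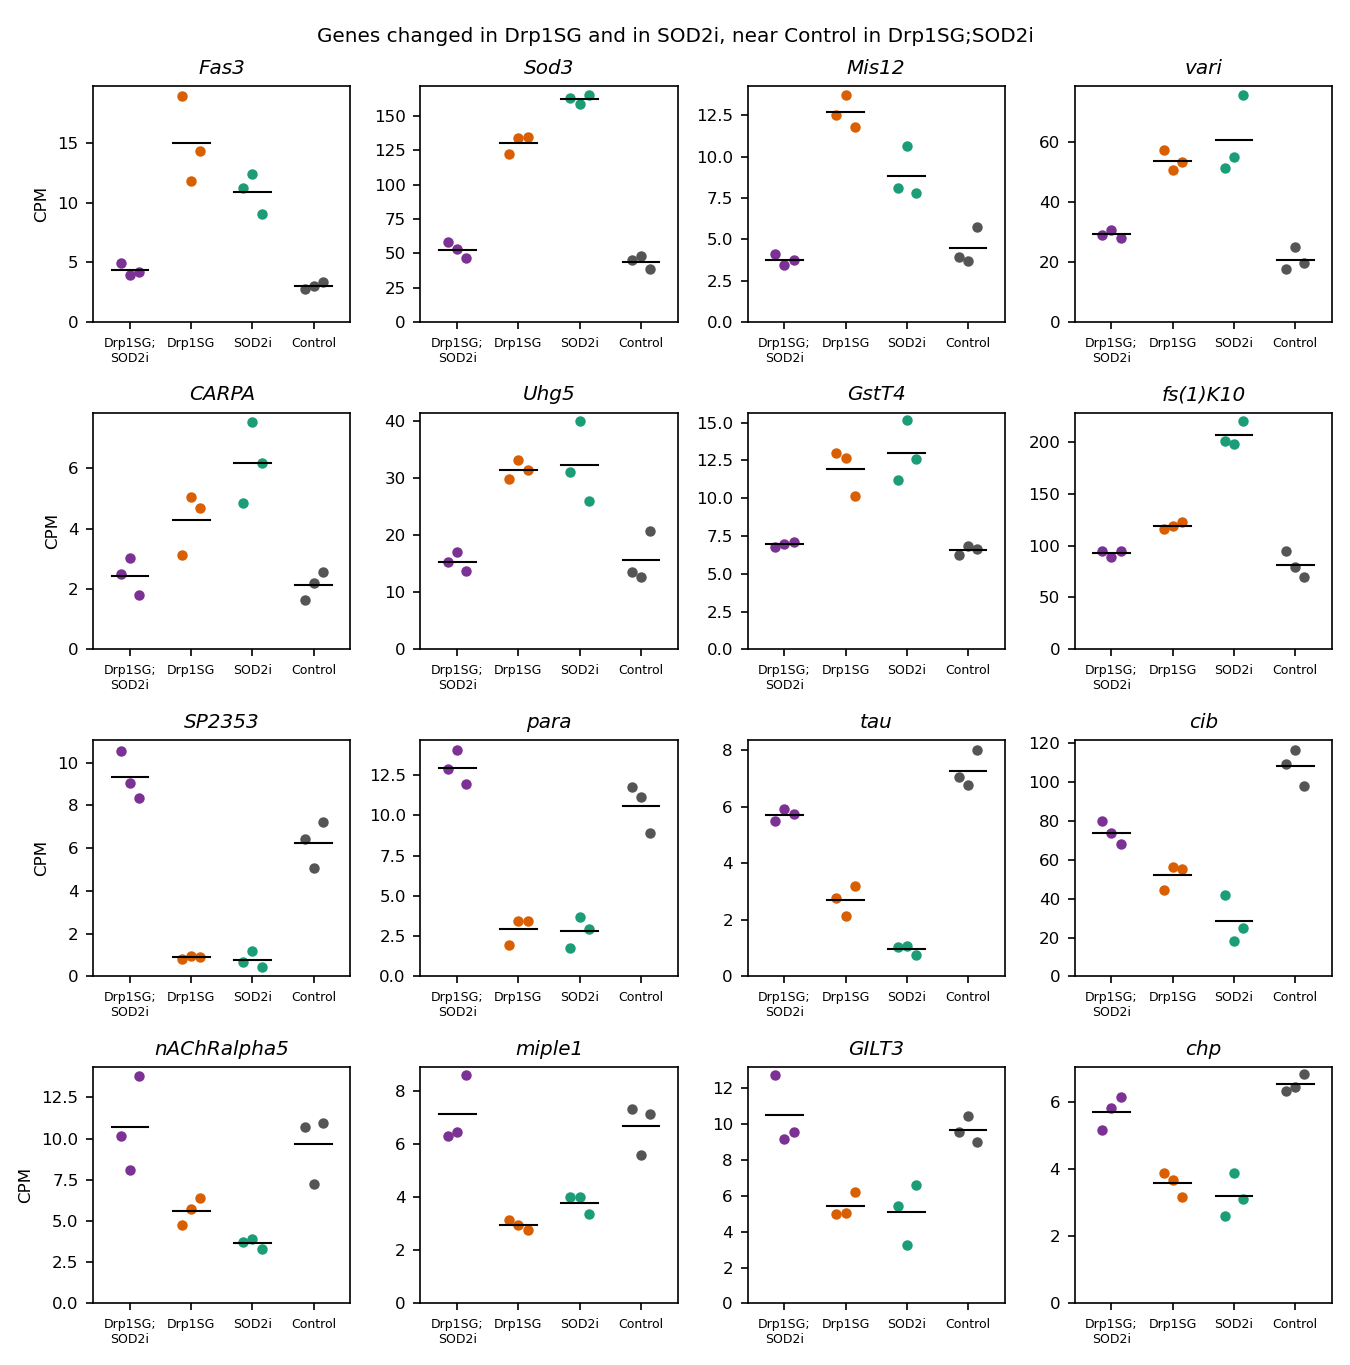
CPM in each library (points) and genotype means (lines) for 16 named genes called in both single genotypes with the double genotype near Control. In the upper 8 panels the single genotypes lie above the double genotype and Control, and in the lower 8 below them, with no overlap in any panel.

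Several of the largest interactions lay at low levels and at neighbouring genes. On chromosome arm 2L, 5 genes in a row in the order of tested genes, lncRNA:CR43807, CG12517, CG14070, lncRNA:CR45724 and CG7309, had no read in any double genotype or Control library. CG7309 had 93, 118 and 135 reads in the Drp1SG libraries and 106, 114 and 123 reads in those of SOD2i. lncRNA:CR43807 had 74, 83 and 68 reads in Drp1SG and 105, 125 and 121 reads in SOD2i. In all, 6 of the 132 higher genes had no read in the double genotype and Control, where 3 reads correspond to 0.0314 to 0.0499 CPM per library, a limit that covers counting error only. In the other direction, Ir92a, an ionotropic receptor gene, had no read in any Drp1SG or SOD2i library, against 1.05, 1.52 and 2.76 CPM in the double genotype and 1.44, 0.591 and 2.36 CPM in Control. These genes were singled out after their values were seen, and no fold is given against a group without reads. The labels do not give the line background of the genotypes, so a difference between lines at such runs of neighbouring genes and an effect of the genotype cannot be told apart.

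On chromosome arm 2R, 3 neighbouring cytochrome P450 genes formed the other run of at least 3. Cyp6g1 had 183, 206 and 191 reads in the double genotype, 28, 48 and 22 reads in Drp1SG, 26, 19 and 22 reads in SOD2i, and 190, 166 and 193 reads in Control. Cyp6t3 had 145, 190 and 191 reads in the double genotype, 21, 29 and 22 reads in Drp1SG, 14, 18 and 28 reads in SOD2i, and 131, 133 and 151 reads in Control. Both fell into a high and a low pair of genotypes without overlap, and Cyp6g2 between them did the same at lower levels. Their interactions were 5.86 ± 0.31 for Cyp6g1, 5.90 ± 0.32 for Cyp6t3 and 2.94 ± 0.48 for Cyp6g2 (adjusted p = 2.50e-07, 3.66e-07 and 0.00158). Across the genome, 11 of the 132 higher genes (8.33%) stood next to another higher gene, against 2.65% of all tested genes with such a neighbour. For the 163 lower genes the share was 19 (11.7%), against 3.3% of all tested genes. Reads of overlapping genes can be assigned to either where the strand used in counting is not given, as here.

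Calls in the interaction were spread unevenly over chromosomes, at 20.3% of tested genes on X, 20.6% on 2R, 16.2% on 2L, 14.1% on 3R and 12.8% on 3L. Chromosome X held 74 of the 295 genes changed in both single genotypes, 4.66% of its tested genes, against 3.56% on 2R, 3.4% on 2L, 2.11% on 3R and 1.92% on 3L. Of 93 tested genes on chromosome 4, 22 were called (23.7%). Genes of an arm are not independent, and no test of these shares was made.

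The genes changed in the double genotype alone were few, 7 higher and 7 lower. Whatever the interaction, the same rule took in 118 genes (1.2% of tested genes, 47 higher and 71 lower), of which 104 were not called in the interaction. In all 14, the 3 double genotype libraries lay beyond the 9 others, a separation found for 4.39% of tested genes (2.26% with the double genotype above and 2.13% below), and in all 14 the double genotype was called against each single genotype. Over all tested genes the double genotype was called against Drp1SG for 10.9% and against SOD2i for 19.3%. The 14 were selected by calls on these same libraries, so these counts describe them and test nothing. The change against Control was at least 2-fold in 5 of the 14.

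ord, which encodes a protein of sister chromatid cohesion in meiosis, had 5.08, 5.37 and 5.28 CPM in the double genotype, 0.856, 1.13 and 1.21 CPM in Drp1SG, 0.682, 0.484 and 1.15 CPM in SOD2i, and 0.555, 0.916 and 0.716 CPM in Control. The other 3 genotypes shared a range far below it. ord rose in the double genotype by 2.84 ± 0.29 on the log2 scale over Control (adjusted p = 9.82e-05), with an interaction of 2.21 ± 0.40 (adjusted p = 0.00291). ap, a LIM-homeodomain transcription factor, had 5.45, 5.20 and 5.25 CPM in the double genotype, 2.72, 2.51 and 2.40 CPM in Drp1SG, 2.15, 1.59 and 1.19 CPM in SOD2i, and 2.03, 2.29 and 2.03 CPM in Control. Its interaction was 1.42 ± 0.26 (adjusted p = 0.00302). The other genes above 0 here were beat-Ib (1.89 ± 0.37), CG15739 (1.43 ± 0.41), CG10013 (1.39 ± 0.22), CG10208 (0.92 ± 0.18) and CG32625 (0.78 ± 0.20). They were named because they are few, as are Erk7 and the 3 genes listed with it below. CG10013 was the most abundant of those that changed at least 2-fold, with 14.2, 15.5 and 14.0 CPM in the double genotype, 4.45, 5.33 and 4.52 CPM in Drp1SG, 6.02, 5.60 and 8.70 CPM in SOD2i, and 5.52, 5.88 and 5.99 CPM in Control.

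The 7 lower genes changed by less than 2-fold. promL, a prominin-like membrane protein, had 169, 158 and 158 CPM in the double genotype, 246, 225 and 229 CPM in Drp1SG, 230, 248 and 249 CPM in SOD2i, and 247, 251 and 235 CPM in Control. The other 9 libraries formed 1 narrow range above it, and the interaction was -0.51 ± 0.09 (adjusted p = 0.00179). trx, the trithorax histone methyltransferase, averaged 242 CPM in the double genotype, 391 CPM in Drp1SG, 364 CPM in SOD2i and 330 CPM in Control (interaction -0.84 ± 0.18, adjusted p = 0.00837). Its call against Control was close to the threshold (adjusted p = 0.0497). nAChRalpha4, a nicotinic receptor subunit, averaged 77.7 CPM in the double genotype, 116 CPM in Drp1SG, 111 CPM in SOD2i and 106 CPM in Control (interaction -0.63 ± 0.13, adjusted p = 0.00709). The others were CG34347 (-0.88 ± 0.21), the kinase gene Erk7 (-0.87 ± 0.18), CG11164 (-0.63 ± 0.17) and CG7029 (-0.51 ± 0.10). The count of 14 rests on single libraries, being 9 without double genotype replicate 2, 7 without Control replicate 2 and 22 without SOD2i replicate 2.

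Opposite changes in the single genotypes were led by 2 genes with large effects. kek1, a membrane protein that damps EGF receptor signalling, had 81.7, 107 and 76.9 CPM in the double genotype, 0.701, 1.56 and 1.39 CPM in Drp1SG, 248, 435 and 359 CPM in SOD2i, and 42.1, 45.4 and 57.8 CPM in Control. The 4 genotypes did not overlap, and the double genotype stood between SOD2i and Control. The interaction was 3.33 ± 0.37 (adjusted p = 1.00e-04). Sema2b, a secreted semaphorin, had 62.4, 71.7 and 73.4 CPM in the double genotype, 4.17, 4.66 and 5.12 CPM in Drp1SG, 95.2, 127 and 94.0 CPM in SOD2i, and 30.6, 32.9 and 37.4 CPM in Control. It showed the same order of genotypes, with an interaction of 2.25 ± 0.19 (adjusted p = 1.01e-05). The glutathione transferase gene GstE11 averaged 11.4 CPM in the double genotype, 4.26 CPM in Drp1SG, 13.8 CPM in SOD2i and 9.35 CPM in Control (interaction 0.85 ± 0.18, adjusted p = 0.00817). modSP, a serine protease upstream of Toll, averaged 15.7 CPM in the double genotype, 29.7 CPM in Drp1SG, 17.8 CPM in SOD2i and 23.6 CPM in Control. Its interaction of -0.51 ± 0.14 (adjusted p = 0.0285) was not called in 9 of 21 alternative fits, where its adjusted p reached 0.104.

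**Figure D4:**
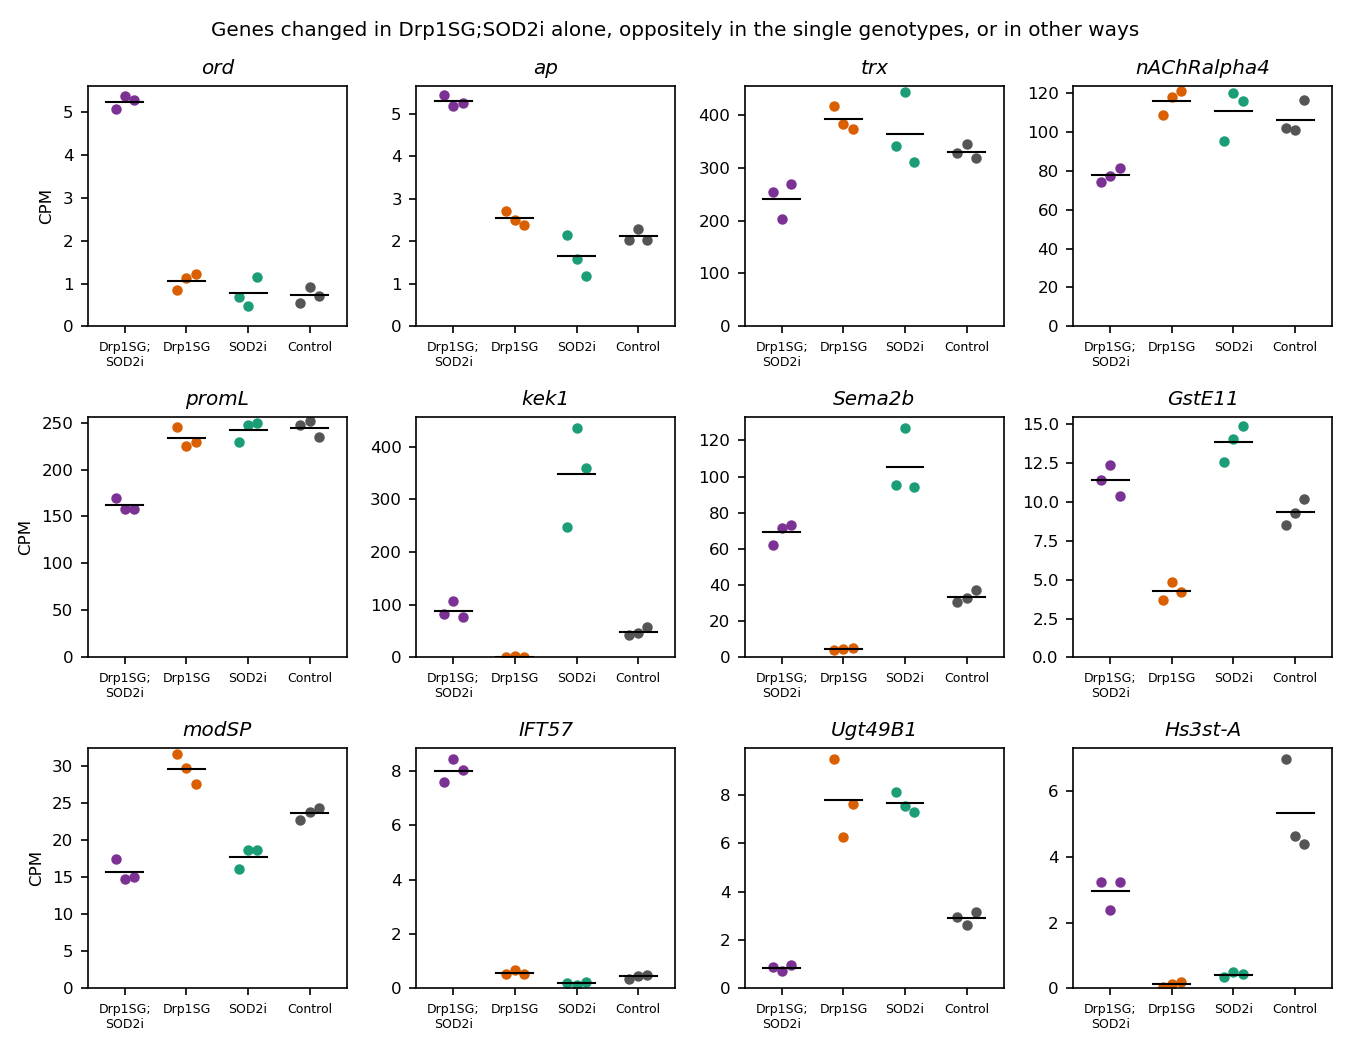
CPM in each library (points) and genotype means (lines) for the named genes called in the double genotype alone (ord, ap, trx, nAChRalpha4, promL), for those called in opposite directions in the single genotypes (kek1, Sema2b, GstE11, modSP) and for IFT57, Ugt49B1 and Hs3st-A. The double genotype lies beyond all 9 other libraries in the first 5 panels, and in the kek1 and Sema2b panels it lies between SOD2i and Control.

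The 255 genes called in all 3 genotypes in the same direction were 109 higher and 146 lower than Control. The double genotype was changed less than either single genotype in 139 of them, between the 2 in 107 and more than both in 9, of which 1 went beyond the sum of the single changes. TkR86C, a tachykinin-type peptide receptor, had 1.27, 1.56 and 2.28 CPM in the double genotype, 1.80, 1.56 and 1.65 CPM in Drp1SG, 1.64, 1.79 and 1.68 CPM in SOD2i, and 24.8, 23.8 and 24.7 CPM in Control. All 3 genotypes shared a low range, and its interaction of 3.87 ± 0.25 (adjusted p = 1.37e-06) arises because the double genotype was not lower still. The tracheal bHLH-PAS factor gene dysf (4.59 ± 0.39) and the cell surface gene DIP-theta (7.47 ± 0.86) had the same form, both with under 1 CPM in every library other than Control. Drep1, of the DNA fragmentation factor family, had 37.0, 32.8 and 33.7 CPM in the double genotype, 111, 126 and 155 CPM in Drp1SG, 107, 82.5 and 105 CPM in SOD2i, and 9.68, 6.69 and 8.54 CPM in Control. Here the double genotype stood apart, between the single genotypes and Control, with an interaction of -5.49 ± 0.23 (adjusted p = 8.47e-08).

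Or2a, an odorant receptor, averaged 1.02 CPM in the double genotype, 7.45 CPM in Drp1SG, 7.43 CPM in SOD2i and 0.343 CPM in Control (interaction -7.28 ± 0.43, adjusted p = 6.11e-07). Arc1, whose protein forms capsids that carry its own mRNA, had 12.9, 13.1 and 12.5 CPM in the double genotype, 8.15, 8.83 and 6.83 CPM in Drp1SG, 44.2, 55.1 and 39.6 CPM in SOD2i, and 0.682, 0.680 and 0.433 CPM in Control. The double genotype was above Drp1SG and below SOD2i without overlap, and the interaction was -5.58 ± 0.25 (adjusted p = 8.47e-08).

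Calls in 1 single genotype alone, with the double genotype near Control, made up 658 of the called genes when Drp1SG (215) and SOD2i (443) are added. The other single genotype was not called, but no margin was set on its change. GatB, for example, changed by -0.86 in Drp1SG and by -0.71 in SOD2i. The direct comparison of Drp1SG with SOD2i was not called for GatB, muskelin, bw, Wnt2 and ppk3. It was called for the other genes named with these patterns. For SOD2i, mthl8, a receptor of the Methuselah family, had 20.8, 24.5 and 24.8 CPM in the double genotype, 22.1, 18.8 and 21.1 CPM in Drp1SG, 0 reads in all 3 SOD2i libraries, and 16.9, 23.3 and 23.2 CPM in Control. The double genotype shared the range of Drp1SG and Control, and SOD2i alone had no read, so no fold is given (interaction adjusted p = 8.47e-08). The serpin gene Spn31A (3.28 ± 0.36), muskelin, a subunit of the CTLH ubiquitin ligase (1.90 ± 0.54), the eye pigment transporter gene bw (-1.54 ± 0.27), Wnt2 (-1.50 ± 0.34) and the sodium channel gene ppk3 (-1.49 ± 0.27) were the others named. The muskelin call was lost in 9 of 21 alternative fits (adjusted p up to 0.0810).

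For Drp1SG, nAChRalpha3 had 60.1, 61.7 and 68.2 CPM in the double genotype, 26, 28.7 and 29.9 CPM in Drp1SG, 65.2, 65.6 and 62.0 CPM in SOD2i, and 82.1, 59.6 and 85.3 CPM in Control. Drp1SG was the low group without overlap (interaction 1.40 ± 0.17, adjusted p = 1.81e-04). The germline thioredoxin gene dhd had 42.9, 40.4 and 23.3 CPM in the double genotype, 113, 203 and 183 CPM in Drp1SG, 50.1, 15.6 and 22.5 CPM in SOD2i, and 15.6, 39.4 and 19.9 CPM in Control. Its interaction was -2.46 ± 0.63 (adjusted p = 0.0204) and was lost in 3 alternative fits. The beta3-tubulin gene betaTub60D (-2.96 ± 0.49), the phospholipase gene Pld (-2.13 ± 0.54), the ionotropic receptor gene Ir76a (1.52 ± 0.37) and GatB, of mitochondrial tRNA amidation (1.29 ± 0.34), were the others named. The Pld call was lost in 2 alternative fits and that of GatB in 5.

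In the 60 genes called in 1 single genotype and the double genotype, IFT57, an intraflagellar transport protein, had 7.58, 8.43 and 8.02 CPM in the double genotype, 0.533, 0.669 and 0.509 CPM in Drp1SG, 0.182, 0.140 and 0.225 CPM in SOD2i, and 0.349, 0.458 and 0.499 CPM in Control. The double genotype alone was high, and the gene is grouped here because SOD2i fell below Control (-1.24 ± 0.23, adjusted p = 0.00234). The IFT57 interaction was 5.04 ± 0.29 (adjusted p = 5.16e-07). Uch, a ubiquitin hydrolase, averaged 26.4 CPM in the double genotype, 40.2 CPM in Drp1SG, 10.1 CPM in SOD2i and 45.6 CPM in Control (interaction 1.56 ± 0.25, adjusted p = 0.00141). The others named were HemK1 (1.10 ± 0.23), the pacemaker channel gene Ih (-1.31 ± 0.20), the RGS protein gene Dhit (-1.30 ± 0.25) and mthl1, a receptor of the gastrulation ligand Fog (-0.66 ± 0.10). mthl1 averaged 80.6 CPM in the double genotype, 99.3 CPM in Drp1SG, 139 CPM in SOD2i and 108 CPM in Control.

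Among the 335 genes of no single pattern, 3 were called in both single genotypes in one direction and in the double genotype in the other. Of these, Ugt49B1, a UDP-glycosyltransferase, had 0.896, 0.730 and 0.946 CPM in the double genotype, 9.51, 6.28 and 7.64 CPM in Drp1SG, 8.13, 7.54 and 7.31 CPM in SOD2i, and 2.95, 2.63 and 3.16 CPM in Control. The double genotype lay below Control and the single genotypes above it (interaction -4.58 ± 0.24, adjusted p = 2.84e-07). Hs3st-A, a heparan sulfate sulfotransferase, averaged 2.95 CPM in the double genotype, 0.127 CPM in Drp1SG, 0.418 CPM in SOD2i and 5.33 CPM in Control (interaction 8.17 ± 0.54, adjusted p = 1.51e-06). dao (2.67 ± 0.26) and Ady43A (-4.60 ± 0.35) were also named. DIP-beta had 47.7 CPM in SOD2i replicate 3 and 1.17 and 1.23 CPM in the other SOD2i libraries, and its call (interaction -5.57, adjusted p = 0.0344) was lost in 12 of 20 alternative fits. Mhc, the muscle myosin heavy chain, had 6.69, 11.9 and 2.29 CPM in the double genotype, 1.95, 2.33 and 1.49 CPM in Drp1SG, 0.728, 0.921 and 0.407 CPM in SOD2i, and 1.49, 0.768 and 1.35 CPM in Control. The summed muscle markers above were highest in double genotype replicate 2 as well, the Mhc interaction of 2.67 ± 0.72 (adjusted p = 0.0258) was lost in 7 of 21 alternative fits, and the part of muscle cells in it was not tested.

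**Figure D5:**
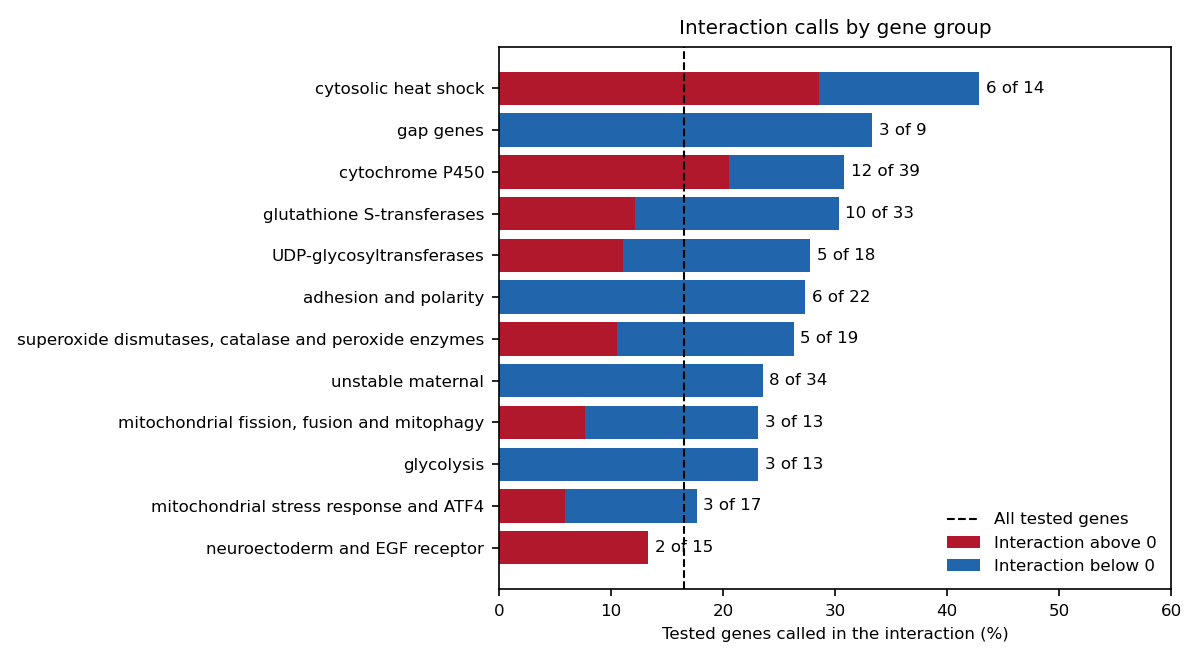
Share of tested genes called in the interaction for 12 gene groups, in red with an interaction above 0 and in blue with one below 0, with the count beside each bar. The dashed line marks the 16.5% of all tested genes that were called, and heat shock genes have the highest share of the 12, at 6 of 14. The 12 groups are part of 43 lists and do not stand for all of them. Lists not drawn lay on both sides of the line. Examples are nuclear complex I genes at 1 of 33, cytosolic ribosomal protein genes at 3 of 87 and segment polarity genes at 3 of 10.

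Gene groups are given by their counts and their median interaction, where the median of all tested genes was 0.0017. The groups described are part of 43 lists, and lists left out had shares of called genes both above and below that of all tested genes. Of 19 superoxide dismutases and peroxide enzymes, 5 were called (2 above 0 and 3 below, median -0.0993). Apart from Sod3 and Sod2 these included Trxr-2, a mitochondrial thioredoxin reductase, at 0.150 CPM in the double genotype, 0.552 CPM in Drp1SG, 0.230 CPM in SOD2i and 0.0729 CPM in Control (interaction -3.50 ± 0.44, adjusted p = 2.53e-04). Prx6005, a peroxiredoxin, averaged 27.0 CPM in the double genotype, 18.2 CPM in Drp1SG, 25.8 CPM in SOD2i and 27.6 CPM in Control (0.66 ± 0.18, adjusted p = 0.0251), a call lost in 3 alternative fits. The median of this group was 0.0018 with upper-quartile scaling, 0.0016 by limma with voom and 0.15 with the maternal index as a covariate.

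Of 33 glutathione S-transferase genes, 10 were called, 4 above 0 and 6 below, with a median of -0.13. Besides GstT4, GstS1 averaged 220 CPM in the double genotype, 176 CPM in Drp1SG, 148 CPM in SOD2i and 240 CPM in Control (interaction 1.02 ± 0.12, adjusted p = 1.67e-04). GstE7 had an interaction of 1.01 ± 0.15 and GstE8 one of -1.28 ± 0.19. Of 39 tested cytochrome P450 genes, enzymes of detoxification and hormone synthesis, 12 were called, 8 above 0 and 4 below. Their median of 0.022 was -0.19 with a filter of 1 CPM, 0.55 by limma with voom and 0.44 with the maternal index as a covariate, so it gives no direction. They include the 3 neighbours on 2R and Cyp317a1 (-3.02 ± 0.34, adjusted p = 9.46e-05). Of the 12, 6 had both single genotypes changed and the double genotype near Control, against 18.1% of all called genes. The 3 neighbours are among these 6 and may not be independent of each other. Of 18 UDP-glycosyltransferases, 5 were called, 2 above 0 and 3 below (median -0.18). Ugt36E1 averaged 13.4 CPM in the double genotype, 22.0 CPM in Drp1SG, 46.7 CPM in SOD2i and 5.02 CPM in Control (-3.93 ± 0.18, adjusted p = 8.47e-08). Ugt49C1 (-6.73 ± 0.50) and Ugt305A1 (3.82 ± 0.63) were expressed at low levels, with genotype means of at most 2.23 CPM for Ugt49C1 and less for Ugt305A1. Genes of these 3 families thus moved in both directions, except that with a filter of 1 CPM 3 UDP-glycosyltransferases were called, all below 0.

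Of 14 cytosolic heat shock genes, 6 were called, 4 above 0 and 2 below, with a median of 0.34. Hsp68, a chaperone of the Hsp70 family, had 7.18, 6.30 and 6.78 CPM in the double genotype, 3.00, 3.90 and 3.76 CPM in Drp1SG, 3.50, 3.59 and 2.67 CPM in SOD2i, and 6.10, 5.64 and 4.01 CPM in Control. Every single-genotype library was below every library of the other groups, and the interaction was 1.62 ± 0.26 (adjusted p = 0.00127). The Hsp70 copies Hsp70Aa (2.07 ± 0.39), Hsp70Ab (2.07 ± 0.43) and Hsp70Bb (1.48 ± 0.38) had the same direction at low levels, and the Hsp70Bb call was lost without Drp1SG replicate 2 (adjusted p = 0.0524). They are near-identical copies whose reads may have been split between them, so these values are uncertain. The 2 genes below 0 were Hsp83, the Hsp90 of flies, at 513 CPM in the double genotype, 867 CPM in Drp1SG, 364 CPM in SOD2i and 381 CPM in Control (-0.69 ± 0.21, adjusted p = 0.0446), and Hsp26 (-1.52 ± 0.47, adjusted p = 0.0467). Hsp83 is also a maternal RNA, and the maternal index given above was highest in Drp1SG, but a link between them was not tested. With upper-quartile scaling 5 heat shock genes were above 0 and 1 below, and with a filter of 1 CPM 4 were above 0 and 0 below, with a median of 0.059.

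Of 34 unstable maternal transcripts, 8 were called and all were below 0, with a median of -0.57. By construction this group sets the maternal index, whose interaction was -0.64, so the 2 are the same measurement. stau, which anchors localised RNAs in the egg, averaged 451 CPM in the double genotype, 485 CPM in Drp1SG, 558 CPM in SOD2i and 398 CPM in Control (-0.59 ± 0.10, adjusted p = 0.00242). exu, which localises bicoid mRNA, had 19.7, 18.8 and 12.8 CPM in the double genotype, 38.9, 66.7 and 54.1 CPM in Drp1SG, 24.8, 8.39 and 17.2 CPM in SOD2i, and 7.15, 12.2 and 5.33 CPM in Control. Drp1SG alone stood clear of the others (-2.67 ± 0.54, adjusted p = 0.00594). The kinase subunit gene png of egg activation had an interaction of -1.34 ± 0.32 (adjusted p = 0.0154). With the maternal index as a covariate 16 of the 34 were called, 8 in each direction, with a median of -0.054. That covariate is the mean of these same 34 transcripts, so it draws their interactions towards 0, and this split tests nothing.

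Of 22 adhesion and polarity genes, 6 were called, all below 0, with a median of -0.30. baz, the Par3 of flies, had 253, 232 and 248 CPM in the double genotype, 331, 315 and 328 CPM in Drp1SG, 356, 362 and 356 CPM in SOD2i, and 255, 225 and 225 CPM in Control. The single genotypes were clear of the others, and the interaction was -1.02 ± 0.09 (adjusted p = 1.35e-05). The polarity kinase aPKC averaged 163 CPM in the double genotype, 179 CPM in Drp1SG, 203 CPM in SOD2i and 172 CPM in Control (-0.38 ± 0.08, adjusted p = 0.00867), and the junction protein gene pyd had -0.42 ± 0.10 (adjusted p = 0.0129). Of 9 gap genes, which divide the early embryo into regions, btd (-0.66 ± 0.12), oc (-0.53 ± 0.13) and ems (-0.44 ± 0.12) were called, all below 0, with a group median of -0.31, and the ems call was lost in 4 alternative fits. With upper-quartile scaling 3 adhesion and polarity genes and 1 gap gene were called, all below 0.

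Of 13 glycolytic genes, 3 were called, all below 0, with a median of -0.60. With the maternal index as a covariate 4 were called, 1 above 0 and 3 below, and the median was -0.12. fbp, the fructose bisphosphatase of gluconeogenesis, averaged 8.88 CPM in the double genotype, 15.7 CPM in Drp1SG, 10.2 CPM in SOD2i and 6.94 CPM in Control (-1.37 ± 0.17, adjusted p = 2.08e-04). Pgk averaged 38.6 CPM in the double genotype, 50.4 CPM in Drp1SG, 50.6 CPM in SOD2i and 43.0 CPM in Control (-0.62 ± 0.13, adjusted p = 0.00723). The Tpi call (-1.75 ± 0.50, adjusted p = 0.0333) was lost in 8 of 21 alternative fits. The best-called member is thus an enzyme of the reverse pathway.

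Of 17 genes of the mitochondrial stress response and ATF4 pathway, 3 were called, 1 above 0 and 2 below (median -0.0715, and 0.014 with upper-quartile scaling). Shmt, of one-carbon metabolism, averaged 6.13 CPM in the double genotype, 12.7 CPM in Drp1SG, 7.04 CPM in SOD2i and 5.91 CPM in Control (-1.30 ± 0.26, adjusted p = 0.00583). crc, the fly ATF4, averaged 253 CPM in the double genotype, 331 CPM in Drp1SG, 165 CPM in SOD2i and 155 CPM in Control, and its call (-0.48 ± 0.14, adjusted p = 0.0416) was lost in 10 of 21 alternative fits. Xbp1, a factor of the unfolded protein response, had 0.45 ± 0.11 (adjusted p = 0.0137). Of 13 genes of mitochondrial fission, fusion and mitophagy, 3 were called, the fusion factor gene Miga (-0.55 ± 0.14, adjusted p = 0.0169), Chchd3 of the cristae junctions (-0.30 ± 0.09, adjusted p = 0.0385) and the fission adaptor gene Fis1 (0.43 ± 0.13, adjusted p = 0.048). The group median was -0.14, the Chchd3 call was lost in 12 of 21 alternative fits and that of Fis1 in 14. Of 15 neuroectoderm and EGF receptor genes, kek1 and kek2 were called, both above 0, and with the maternal index as a covariate 6 were called, 3 in each direction. kek2 averaged 2.45 CPM in the double genotype, 0.817 CPM in Drp1SG, 1.06 CPM in SOD2i and 3.18 CPM in Control (3.17 ± 0.26, adjusted p = 8.93e-06).

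Of the 15 listed mitochondrially encoded transcripts, 0 were called in the interaction by edgeR's quasi-likelihood test, with 0 at an unadjusted p under 0.05. The mitochondrial genome held 17 tested genes, of which 0 were called by that test. The DESeq2 Wald test called 0, with 1 at an unadjusted p under 0.05, and limma with voom called 0. The list medians were -0.48 in the double genotype, -0.50 in Drp1SG and 0.13 in SOD2i, each a log2 change against Control.

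The authors' deposited tables give DESeq2 results of each genotype against Control, without an interaction. By the same rule 256 genes in the authors' deposited tables were called in both single genotypes with the double genotype near Control, 104 higher and 152 lower. Of these, 214 were among the 305 genes found here with that rule, which is 83.6% of the list from the authors' deposited tables and 70.2% of the other. The authors' deposited tables gave 188 genes in the double genotype alone, 71 higher and 117 lower. Of these, 90 were among the 118 found here, 47.9% of one list and 76.3% of the other.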

How the data were processed

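Read counts per gene, as deposited by the authors without normalization, were tested for 12 libraries, and the authors also deposited DESeq2 log2 fold changes and adjusted p-values over Control. Tools listed in the submitters' processing notes, in no stated order or role, are featureCounts 1.5.2, DESeq2, HISAT2 2.1.0, Trimmomatic and Bowtie2 2.2.4. Neither the genome build nor the counting strand is given in the sources used here, so no coordinates are given. Gene order and chromosomes come from a RefSeq table of Release 6, which matched 17827 of 17868 gene IDs.

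edgeR 4.0.16 in R 4.3.3 was used with its filterByExpr rule, TMM scaling and the quasi-likelihood test, with 1 mean per genotype. Standard errors are the log2 change over the root of the F statistic. P-values were adjusted by Benjamini-Hochberg over all 9863 tested genes. CPM use TMM-scaled library sizes. The procedure was tested on simulated data.

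Genes were named by a rule: Sod2 and Drp1, then per pattern the largest interactions with a mean of at least 5 CPM in the highest genotype, with libraries that do not overlap for the 2 main patterns, and up to 4 members per group by adjusted p. Genes known only by a number were left out of the ranking. Other genes were picked with their values in view. The members and the 43 gene lists were chosen with earlier results of these data known. Alternatives were other scalings, filters, margins and thresholds, DESeq2 1.42.0, limma 3.58.1 with voom, a replicate block, the maternal index as a covariate and leaving out each library.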

Additional observations from a re-analysis of the deposited data

Results flagged for a closer look

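The effect of SOD2i differed between the Drp1SG and the Control background for 1631 genes by the test of that difference, the interaction itself. In 4 named genes the single genotypes moved in opposite directions from Control, and Drp1SG differed from SOD2i by a log2 fold change of -8.14 for kek1, -4.50 for Sema2b, -1.70 for GstE11 and 0.74 for modSP. Each of these 4 differences was called in the direct comparison of Drp1SG with SOD2i.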

How the results depend on the processing

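Counts of interaction calls kept within 1.5 times of 1631 under other scalings, filters and tools, except that the calls below 0 were 465 with upper-quartile scaling, whose median interaction over all genes was 0.098. At least 2-fold, 942 genes were called. Adding the maternal index to the model gave 2680 calls, 1431 above 0 and 1249 below, and 1494 of the 1631 were among them. Of the 295 genes changed in both single genotypes with the double genotype near Control, 157 were among the 392 of that fit. The cause was not tested. The genes changed in the double genotype alone were 42 by the DESeq2 Wald test, 45 with the maternal covariate, 9 with a narrower margin and 39 with calls at an adjusted p under 0.1. Without single libraries, the interaction gave 1250 to 1711 calls, 715 to 1042 above 0 and 524 to 776 below, 199 to 322 genes changed in both single genotypes, 7 to 22 in the double genotype alone, and interactions of 0.61 to 1.01 for Sod2 and -0.36 to -0.06 for Drp1. Without both libraries of the lowest maternal index, a choice made after seeing the data, the counts were 1604, 281 and 18. Of 98 genes followed, 76 kept their call or lack of one in every alternative, and none changed sign.

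Replicate numbers were not used to pair the libraries in the main fit. Of 18 same-number pairs 6 correlated above 0.1, and 5 libraries correlated best with their own number. Correlations were -0.27 to 0.22 in same-number pairs and -0.37 to 0.47 in pairs of different number. Whether the numbers mark pairs was not tested. With the replicate number as a block there were 1423 calls, 278 genes changed in both single genotypes and 12 in the double genotype alone, and the Sod2 interaction of 0.78 was not called (adjusted p = 0.0533). A filter of 1 CPM removed Trxr-2, Cyp6g2, Ugt305A1 and Hsp70Aa, and DESeq2 gave no adjusted p for DIP-beta. Counts of gene groups that moved by over 1.5 times were, with the maternal index in the model, 16 maternal, 10 adhesion and polarity, 6 neuroectoderm and 5 ATF4 genes, with upper-quartile scaling 3 adhesion and polarity and 1 gap gene, with a filter of 1 CPM 3 UDP-glycosyltransferases, with the replicate block 1 fission and fusion and 3 peroxide genes, and by the DESeq2 Wald test 5 ATF4 genes.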
